A study of Mus musculus with 4 samples.

Results

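The genes described here are 8 genes of cholesterol synthesis, namely Hmgcs1, Idi1, Fdft1, Sqle, Lss, Cyp51, Dhcr7 and Insig1, of 19938 genes that the array represents with a cluster of a single symbol. They were chosen by name, as every transcript cluster (a set of probes that covers 1 transcript) whose only gene symbol is one of the 8, which gave 10 of 28856 clusters. Idi1 and Fdft1 have 2 clusters each and the other genes 1. Among them, 7 of the 8 genes encode enzymes and Insig1 encodes a regulator of them.

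Expression was measured in 4 sorted mouse cell populations with 1 Affymetrix whole-transcript array each. On day 9 of neural differentiation in serum-free floating aggregates, 129SVEV embryonic stem cells (ESCs) that carry GFP knocked in at Lmx1a were sorted for GFP and split by CORIN. This gave the population CORIN+LMX1A::GFP+ (cultured CORIN+ cells) and the population CORIN-LMX1A::GFP+ (cultured CORIN- cells), and both carry the knock-in allele. The cultures had received the growth factors FGF8b and SHH in the first days of differentiation. The remaining 2 came from the ventral mesencephalon (VM) of C57BL/6N fetuses at E11.5, sorted on CORIN alone (VM CORIN+ cells and VM CORIN- cells). CORIN, a protease on the cell surface, marks the floor plate, and LMX1A drives the fate of midbrain dopaminergic progenitors. The main comparison set each cultured population against the fetal population of the same CORIN status. Culture and fetus differed also in strain, reporter allele and sort, since only the cultured cells were selected for LMX1A::GFP. None of these can be told apart from the culture itself. With 1 array per population there is no replicate and no test, and precision is limited by there being 1 array for each value.

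Cells make cholesterol from acetyl-CoA. The first steps build mevalonate and from it the isoprenoid units, which are joined to squalene; squalene is then oxidised, closed to lanosterol and trimmed in a series of steps to cholesterol. The genes are switched on together by the transcription factor SREBP2 (gene Srebf2) when membranes of the endoplasmic reticulum hold little sterol, and INSIG1 holds SREBP2 back when sterol is plentiful. Fetal neural cells depend largely on their own synthesis, and cholesterol is also coupled to Sonic hedgehog, the signal of the floor plate.

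Promoter sequence was looked at because the genes share this control. RefSeq windows of 250 bases before to 50 bases after a transcription start, on the build GRCm38.p6, were at hand for 6 of the 8 genes and not for Sqle and Fdft1. Motifs were searched on both strands. These were TCACNCCAC for the sterol regulatory element that SREBP binds, CCAAT for the box of the factor NF-Y, and GGGCGG for the GC box of SP1. In the windows printed here no match overlapped another. Windows are shown for Hmgcs1, which alone among the 6 genes matched the sterol regulatory element, and for Cyp51 and Dhcr7, whose culture minus fetal differences were the lowest and the highest of the group. The Dhcr7 window belongs to 1 of 3 starts listed for the gene, the one with the most matches. Capitals mark matches to any of the 3 motifs on either strand, and each window is written 5′ to 3′ on the strand of its gene.
Hmgcs1, chr13:119690101-119690400, plus strand: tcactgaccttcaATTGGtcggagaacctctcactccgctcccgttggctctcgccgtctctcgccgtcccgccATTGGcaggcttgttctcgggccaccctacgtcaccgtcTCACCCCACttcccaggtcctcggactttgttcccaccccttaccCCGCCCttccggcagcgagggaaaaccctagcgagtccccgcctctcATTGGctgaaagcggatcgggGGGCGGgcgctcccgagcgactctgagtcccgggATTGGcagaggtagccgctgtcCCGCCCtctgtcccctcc
Cyp51, chr5:4104648-4104947, minus strand: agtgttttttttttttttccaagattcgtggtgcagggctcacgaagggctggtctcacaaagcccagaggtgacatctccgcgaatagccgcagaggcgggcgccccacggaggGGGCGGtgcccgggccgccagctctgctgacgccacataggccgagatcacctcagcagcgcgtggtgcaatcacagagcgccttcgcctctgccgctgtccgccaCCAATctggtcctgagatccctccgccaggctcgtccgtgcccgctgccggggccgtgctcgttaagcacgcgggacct
Dhcr7, chr7:143829964-143830263, plus strand: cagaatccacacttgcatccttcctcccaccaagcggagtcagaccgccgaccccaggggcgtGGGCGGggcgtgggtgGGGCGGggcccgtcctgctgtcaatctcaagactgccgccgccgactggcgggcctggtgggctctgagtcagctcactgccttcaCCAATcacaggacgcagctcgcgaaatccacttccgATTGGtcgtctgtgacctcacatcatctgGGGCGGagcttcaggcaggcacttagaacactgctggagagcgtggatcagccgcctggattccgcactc
The sterol regulatory element of the Hmgcs1 window begins at position -137 from the start, and the window holds 4 CCAAT boxes and 3 GC boxes as well. The Cyp51 window holds 1 of each of these boxes, and the Dhcr7 window 2 CCAAT boxes and 3 GC boxes. Of all 32851 windows of the table, 1.24% matched the sterol regulatory element, 37.4% the CCAAT box and 35.7% the GC box. Counted by gene, with any of its windows, the sterol regulatory element matched in 1 of 6 members with a window and in 0 of 11 other sterol pathway genes, beside 1.44% of all genes. CCAAT matched in 6 of 6 members with a window and in 9 of 11 other sterol pathway genes, beside 41.1% of all genes. The GC box matched in 6 of 6 members and 10 of 11 of the other pathway genes, beside 38.2% of all genes. A match of letters is a description and does not show a bound site.

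Each of the 8 genes had a similar signal in all 4 populations, and none of them reached 2-fold between any cultured and fetal population. Their log2 signals lay between 10.33 and 12.54, and all 8 were above the median cluster on all 4 arrays, whose medians ran from 7.97 to 8.03. Within a gene, the highest and the lowest array were apart by 0.13 log2 units (1.10-fold, Insig1) to 0.79 log2 units (1.72-fold, Cyp51). In CORIN+ cells, 0 of the 8 genes reached 2-fold upwards in culture and 0 downwards, beside 2.7% and 3.86% of all clusters. In CORIN- cells the counts were again 0 and 0, beside 3.94% and 3.53% of all clusters. At such shares a count of 0 among 8 genes is no more than the background gives.

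The median log2 difference of the 8 genes, culture minus fetal, was 0.0060 for CORIN+ cells and -0.31 for CORIN- cells, against 0.016 and -0.020 over all clusters. The first of these medians has no settled sign, since it turned to -0.020 at its lowest under the other settings tried. The scaled median absolute deviation of these differences over all clusters, used here as the yardstick of spread, was 0.24 for CORIN+ cells and 0.26 for the CORIN- fraction. Past it, in either direction, were 3 of the 8 genes in CORIN+ cells (Sqle, Cyp51 and Dhcr7), beside 36.8% of all clusters. In CORIN- cells 4 were past it (Sqle, Idi1, Fdft1 and Cyp51), beside 37.4%. The 2 comparisons share no array. In CORIN+ cells 4 genes had a higher and 4 a lower signal in culture, and in CORIN- cells 2 had a higher and 6 a lower one. Of all 28856 clusters, 15280 were higher in culture in CORIN+ cells and 13365 in CORIN- cells. Dhcr7 and Insig1 were higher in culture in both, and Sqle, Idi1, Fdft1 and Cyp51 were lower in both. The share of all clusters with the same direction in both fractions is not given here. This agreement between fractions therefore has no background to be read against.

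**Figure D1:**
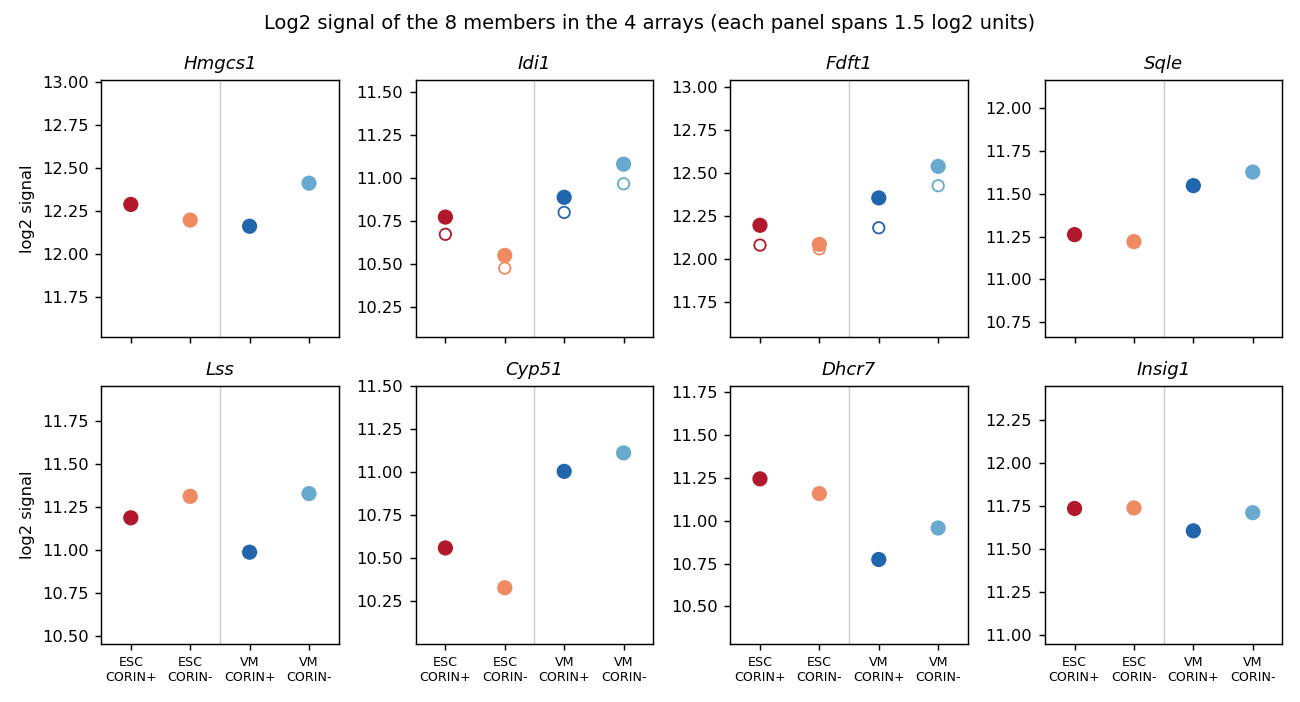
Log2 signal of the 8 genes (vertical axis) in the 4 arrays (horizontal axis; ESC, day 9 culture; VM, E11.5 fetal ventral mesencephalon), 1 array per population and no error bars. Filled circles are the cluster that represents the gene and open circles the other cluster of Idi1 and Fdft1; each panel spans the same height. Cyp51 shows the widest range over arrays (0.79) and Insig1 the narrowest (0.13).

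The first member of the pathway, Hmgcs1, encodes HMG-CoA synthase, which makes the precursor of mevalonate. Its log2 signal was 12.29 in cultured CORIN+ and 12.20 in cultured CORIN- cells, against 12.16 in VM CORIN+ and 12.41 in VM CORIN- cells. The cultured populations thus lay between the fetal ones. The differences, culture minus fetal, were 0.13 in CORIN+ cells and -0.22 in CORIN- cells, both within the yardstick of spread.

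Idi1 encodes isopentenyl-diphosphate isomerase, which interconverts the isoprenoid units. The log2 signal of Idi1 was 10.77 in cultured CORIN+ and 10.55 in cultured CORIN- cells, against 10.89 in VM CORIN+ and 11.08 in VM CORIN- cells. Both cultured populations were below both fetal ones, by 0.12 log2 units in CORIN+ cells and 1.45-fold (log2 difference -0.53) in CORIN- cells. The other cluster of Idi1, which is annotated with the same transcripts, gave -0.13 and -0.49. Fdft1 encodes squalene synthase, the first enzyme committed to sterols. On the log2 scale, Fdft1 gave 12.19 in cultured CORIN+ and 12.08 in cultured CORIN- cells, against 12.35 in VM CORIN+ and 12.54 in VM CORIN- cells. Again both cultured values were below both fetal values, with log2 differences of -0.16 and -0.45, and the other cluster gave -0.10 and -0.37. Over the 4 comparisons, the 2 clusters of a gene differed by 0.012 to 0.040 log2 units for Idi1 and by 0.059 to 0.089 for Fdft1. Whether the clusters of a gene read the same transcript or a related copy was not tested.

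Sqle encodes squalene epoxidase, which begins the conversion of squalene to sterols. Sqle had a log2 signal of 11.26 in cultured CORIN+ and 11.22 in cultured CORIN- cells, against 11.55 in VM CORIN+ and 11.63 in VM CORIN- cells. Both cultured values were below both fetal values, by 1.22-fold in CORIN+ cells and 1.32-fold in CORIN- cells. Lss encodes lanosterol synthase, which closes the sterol rings. For Lss the log2 signal was 11.19 in cultured CORIN+ and 11.31 in cultured CORIN- cells, against 10.99 in VM CORIN+ and 11.33 in VM CORIN- cells. Its differences were 0.20 in CORIN+ cells and -0.016 in CORIN- cells, and the value in CORIN- cells turned to 0.0038 when differences were centred on the median of all clusters.

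Cyp51 encodes lanosterol demethylase, the P450 enzyme of the pathway, and had the lowest culture minus fetal difference of the 8 genes in both fractions. The arrays gave Cyp51 a log2 signal of 10.56 in cultured CORIN+ and 10.33 in cultured CORIN- cells, against 11.00 in VM CORIN+ and 11.11 in VM CORIN- cells. Both cultured values lay below both fetal values, with a log2 difference of -0.45 (1.36-fold lower in culture) in CORIN+ cells and -0.79 (1.72-fold lower) in CORIN- cells. Among all clusters these values stood at percentiles 9.04 and 4.80. Cyp51 was the 1 gene of the 8 at least 1.5-fold lower in cultured than in fetal CORIN- cells, a fold that 6.8% of all clusters reached.

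Dhcr7 stood at the other end of the group. It encodes 7-dehydrocholesterol reductase, which carries out the last step to cholesterol on one branch of the pathway. Dhcr7 had a log2 signal of 11.24 in cultured CORIN+ and 11.16 in cultured CORIN- cells, against 10.77 in VM CORIN+ and 10.96 in VM CORIN- cells. Both cultured values were above both fetal values, by 1.38-fold in CORIN+ cells and 1.15-fold in CORIN- cells. Insig1, the sterol-sensing partner that keeps the SREBP proteins in the endoplasmic reticulum and is itself switched on by them, had log2 signals of 11.73 in cultured CORIN+ and 11.74 in cultured CORIN- cells, against 11.60 in VM CORIN+ and 11.71 in VM CORIN- cells. Its differences of 0.13 and 0.028 were within the yardstick of spread.

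The rest of the pathway was read from a list of further genes, of which 11 were analysed here. None of the 11 reached 2-fold in any comparison. Together with the 7 member enzymes this gave 18 pathway genes, of which 13 had a higher and 5 a lower signal in cultured than in fetal CORIN+ cells, with a median log2 difference of 0.13. In CORIN- cells 9 were higher and 9 lower, with a median of 0.0032. Beside these counts, 15280 of all 28856 clusters were higher in culture in CORIN+ cells and 13365 in CORIN- cells. The 11 genes outside the group had medians of 0.18 in CORIN+ cells and 0.082 in CORIN- cells, both above those of the 8 members.
In pathway order, the mevalonate kinases and decarboxylase Mvk, Pmvk and Mvd had log2 differences of 0.12, 0.18 and 0.25 in CORIN+ cells and of 0.034, -0.19 and 0.21 in CORIN- cells, and the value of Mvk in CORIN- cells turned to -0.033 after quantile normalization. Fdps, which makes farnesyl diphosphate, was at 0.034 and 0.082. The early enzymes thus lay on both sides of 0, and the 2 early members lowest in culture, Idi1 and Fdft1, stand on either side of Fdps in the pathway. After Cyp51, the reductase Tm7sf2 was at 0.41 and 0.22. The demethylation enzymes Msmo1, Nsdhl and Hsd17b7 were at 0.042, -0.017 and 0.13 in CORIN+ cells and at 0.022, -0.25 and -0.091 in CORIN- cells. The isomerase Ebp was at 0.30 and 0.20 and the desaturase Sc5d at 0.29 and 0.28. Ebp, Sc5d and Dhcr7 act one after the other at the end of the pathway, and all 3 were higher in culture in both fractions, each under 1.5-fold. The same direction in both fractions held for Mvk, Mvd, Fdps, Tm7sf2, Msmo1 and Erg28, so it was not particular to the end of the pathway. Erg28, known from yeast as a scaffold of the sterol enzymes, had the highest log2 difference of the 18 genes in CORIN- cells (0.62) and stood at 0.45 in CORIN+ cells. In all, 9 of the 18 genes were higher in culture in both fractions, 5 were lower in both, and 4 were higher in CORIN+ cells only. For these counts too, the share of all clusters is not given here, so they are a description only.

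**Figure D2:**
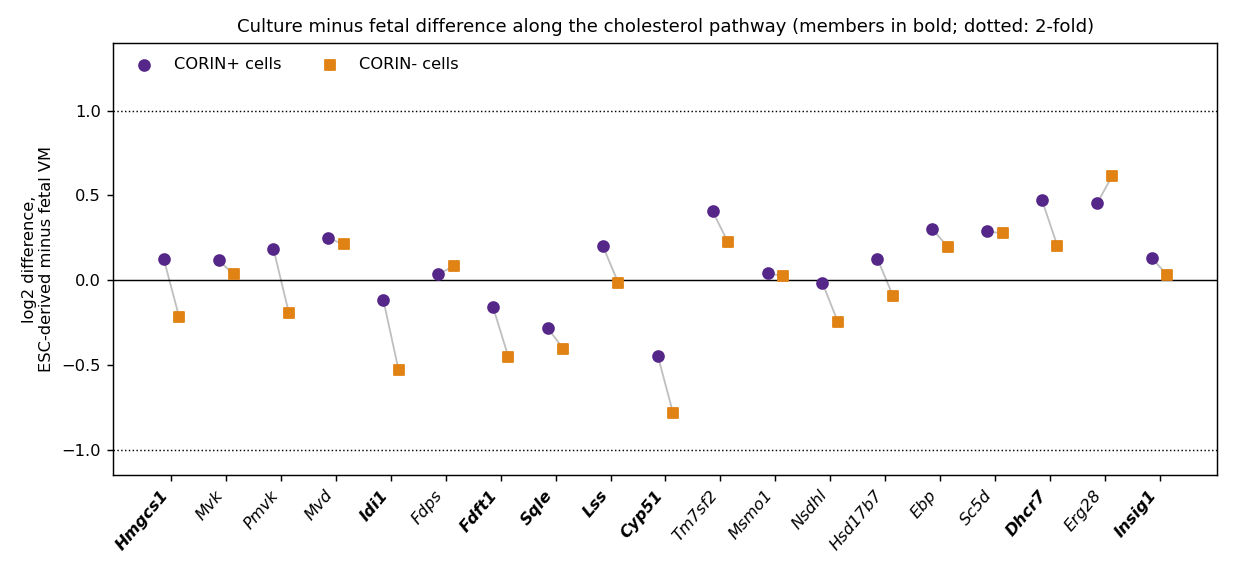
Log2 difference, ESC-derived minus fetal VM, of 17 enzymes in pathway order and of Erg28 and Insig1 (horizontal axis), with members in bold. Circles are CORIN+ cells and squares CORIN- cells, 1 array per population; dotted lines mark 2-fold, which no gene reached. Cyp51 lies lowest (-0.45 and -0.79), and 9 of the 18 pathway genes, Ebp, Sc5d and Dhcr7 among them, lie above 0 in both.

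Among the genes that sense sterol and regulate its uptake, more had a higher than a lower signal in culture. Of 18 listed genes 14 were measured, and 13 of these were higher and 1 was lower in CORIN+ cells, with a median of 0.32, while 11 were higher and 3 lower in CORIN- cells, with a median of 0.22. In CORIN+ cells 2 of the 14 reached 2-fold above the fetal signal and 0 below it, beside the 2.7% and 3.86% of all clusters given before. In CORIN- cells the counts were 2 and 0, beside 3.94% and 3.53%. Srebf2, the activator of the pathway, was at 0.18 and 0.10, and Scap, the escort of the SREBP proteins, at -0.16 and -0.075. Insig2, the second INSIG gene, was at 0.37 and 0.23. Mbtps1, a protease that releases the SREBP proteins, was at 0.51 and 0.65, and Stard4, a sterol carrier, at 0.55 and 0.70. The 2 genes past 2-fold were Srebf1 and Mylip. Srebf1 encodes SREBP1, which drives chiefly the synthesis of fatty acids. Srebf1 had a log2 signal of 11.09 in cultured CORIN+ and 10.97 in cultured CORIN- cells, against 9.85 in VM CORIN+ and 9.80 in VM CORIN- cells, which is 2.37-fold and 2.25-fold. Mylip encodes the ubiquitin ligase that marks the LDL receptor for breakdown. It was 2.43-fold higher in culture in CORIN+ cells and 3.99-fold higher in CORIN- cells, and across the sort its signal was 2.03-fold higher in CORIN+ cells of the culture and 3.34-fold higher in those of the VM.
Among 15 genes of fatty acid synthesis, 1 reached 2-fold above the fetal signal in each fraction and 0 below it, with medians of 0.11 and 0.078. A count of 1 in 15 is too small to be set apart from the share of all clusters, 2.7% in CORIN+ cells and 3.94% in CORIN- cells. That gene was Scd1, a desaturase that makes monounsaturated fatty acids. Scd1 had a log2 signal of 13.08 in cultured CORIN+ and 13.18 in cultured CORIN- cells, against 11.91 in VM CORIN+ and 11.64 in VM CORIN- cells, which is 2.25-fold and 2.90-fold. Fasn, the fatty acid synthase, was at 0.11 and 0.16, and Acly, which supplies cytosolic acetyl-CoA to both pathways, at -0.43 and -0.41. None of 10 measured genes of the isoprenoid branch reached 2-fold in either fraction, with medians of 0.23 and 0.19. Of 3 measured genes of ketone and acetoacetyl-CoA metabolism, 0 reached 2-fold in CORIN+ cells and 1 did in CORIN- cells. This was Bdh1, a dehydrogenase of ketone bodies, whose signal was 1.87-fold lower in cultured than in fetal CORIN+ cells and 2.31-fold lower in CORIN- cells. Of all clusters, 3.53% were at least 2-fold lower in cultured than in fetal CORIN- cells.

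**Figure D3:**
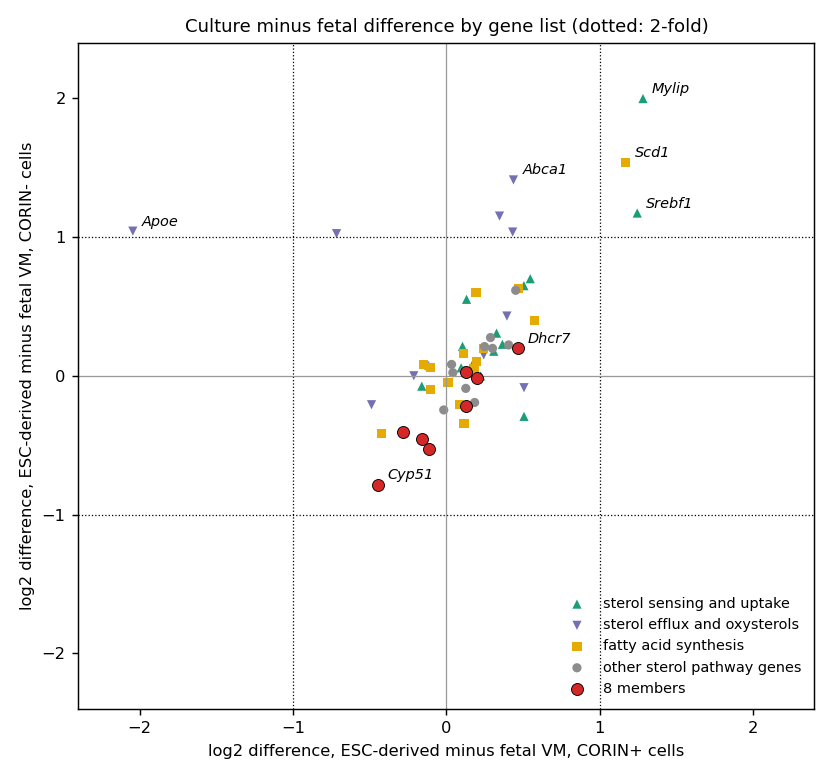
Log2 difference, ESC-derived minus fetal VM, in CORIN+ cells (horizontal axis) and CORIN- cells (vertical axis), 1 point per gene and 1 array per population. Red circles are the 8 members, which lie inside the dotted 2-fold lines; Srebf1, Mylip and Scd1 lie past 2-fold on both axes, and Apoe lies past it in opposite directions.

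Within each source the sort was checked on Corin. Its signal in CORIN+ cells was 3.90-fold that in CORIN- cells of the culture and 17.7-fold that in CORIN- cells of the VM. On the log2 scale Corin was at 13.10 in cultured CORIN+ and 11.13 in cultured CORIN- cells, against 11.43 in VM CORIN+ and 7.28 in VM CORIN- cells. Fractions of the same CORIN status thus differed in Corin between the sources. It was higher in culture by 3.18-fold in CORIN+ cells and 14.4-fold in CORIN- cells. The cholesterol genes differed little across the sort. In the culture 0 of 8 reached 2-fold above the CORIN- signal and 0 below it, beside 0.353% and 0.468% of all clusters. In the fetal VM the counts were 0 and 0, beside 2.67% and 0.672%. The ESC-derived differences ran from -0.13 (Lss) to 0.23 (Cyp51), with a median of 0.088, and 6 of the 8 genes lay above 0. So did 14630 of all 28856 clusters.
In the fetal VM the differences ran from -0.34 (Lss) to -0.079 (Sqle), with a median of -0.18 against -0.037 over all clusters, and all 8 genes had a lower signal in CORIN+ than in CORIN- cells. Of all clusters, 59.7% lay below 0 in this comparison. The scaled median absolute deviation over all clusters was 0.15 for the sort of the culture and 0.16 for that of the VM. Past it were 2 of the 8 genes in the culture (Idi1 and Cyp51), beside 34.6% of all clusters, and 5 in the VM (Hmgcs1, Idi1, Fdft1, Lss and Dhcr7), beside 37.8%. These counts use differences as deposited. Centred on the median of all clusters, the VM differences of Idi1, Fdft1 and Dhcr7 were -0.156, -0.147 and -0.146. They thus fell inside the deviation of 0.162, while Hmgcs1 (-0.214) and Lss (-0.304) stayed past it. The share of all clusters past it after centring is not given here. Across the 4 arrays, VM CORIN- cells had the highest signal for 6 of the 8 genes (all but Dhcr7 and Insig1), beside 35.9% of all clusters. The lowest signal was in cultured CORIN- cells for 4 genes and in VM CORIN+ cells for the other 4. The difference between the sort differences was not tested, since no population has a replicate.
Fewer cells of a type and less RNA per cell cannot be told apart in such bulk samples. Markers of other cells differed across the same arrays. All 10 neuronal markers had a lower signal in CORIN+ than in CORIN- cells, with medians of -0.60 in the culture and -0.52 in the VM. They were lower in culture than in the fetus also, with medians of -1.49 and -1.53, and their summed linear signal was 13216 in cultured CORIN+ cells, 18781 in cultured CORIN- cells, against 36116 in VM CORIN+ and 51568 in VM CORIN- cells. VM CORIN- cells had the most neuronal signal and also the highest signal of 6 members. In the culture, CORIN- cells had more neuronal signal than CORIN+ cells, while 6 of the 8 members had a lower signal in them. The part of neurons in the cholesterol values was not tested.
VM CORIN+ cells held the signals of several non-neural cell types. All 10 macrophage markers and all 10 mesenchyme markers were higher there than in VM CORIN- cells, with median log2 differences of 3.89 and 2.19, and so were 7 of 8 erythroid markers (1.32) and 8 of 10 endothelial ones (0.42). The summed linear signal of the macrophage markers was 1021 in cultured CORIN+ and 1039 in cultured CORIN- cells, against 17449 in VM CORIN+ and 1111 in VM CORIN- cells. An array gives no signal of 0, so the level of a gene that is not expressed is its own background. Pluripotency markers were high in 1 population, with a summed signal of 4893 in cultured CORIN- cells and of 1175 in cultured CORIN+ cells, against 1161 in VM CORIN+ and 1293 in VM CORIN- cells. The labelled tissue was checked on the floor plate list, of which 9 of 10 genes were measured. All 9, Corin among them, were brighter in CORIN+ than in CORIN- cells of both sources. Culture against fetus, 5 of the 9 were at least 2-fold higher in CORIN+ cells (median 1.22) and 7 of the 9 in CORIN- cells (median 1.39). Of all clusters, 2.7% and 3.94% were that much higher. Their summed linear signal was 65433 in cultured CORIN+ and 42903 in cultured CORIN- cells, against 30558 in VM CORIN+ and 15864 in VM CORIN- cells. The 10 neural progenitor markers had medians of 0.15 in the culture and -0.011 in the VM, CORIN+ minus CORIN-, and of -0.34 in CORIN+ cells and -0.46 in CORIN- cells, culture minus fetal. No gene of cell division reached 2-fold in any comparison. In the VM, however, 12 of 13 were higher in CORIN+ than in CORIN- cells, with a median of 0.22, beside a median of -0.18 for the 8 cholesterol genes. The medians of the cell division genes were -0.066 across the sort of the culture, and 0.075 in CORIN+ cells and 0.29 in CORIN- cells for culture minus fetal. The part of these cell types in the differences of the 8 genes was not tested.

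**Figure D4:**
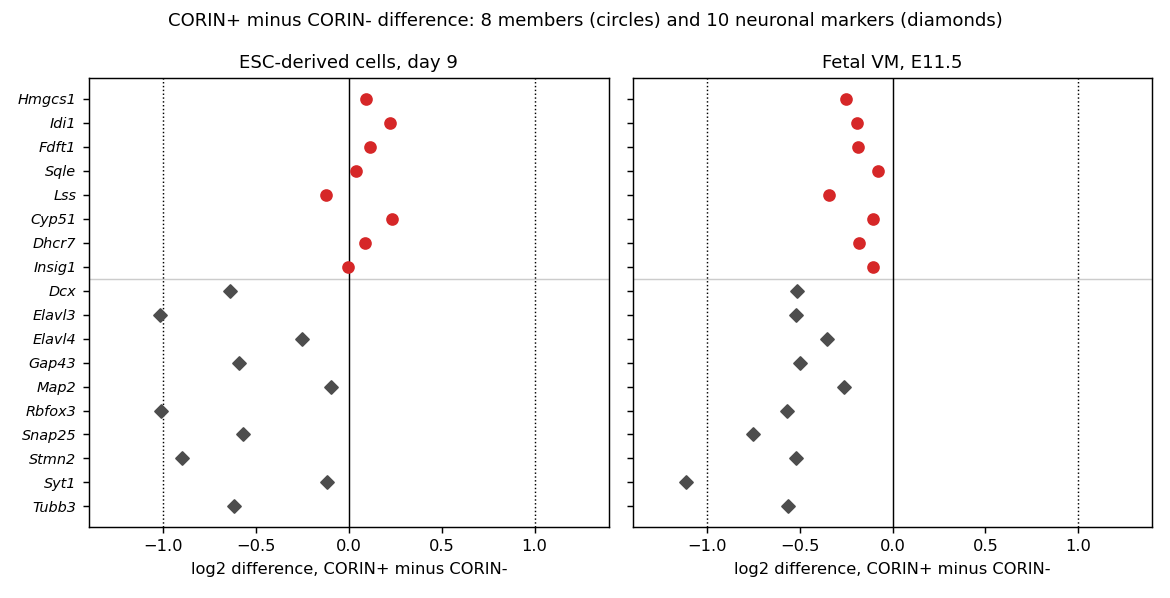
Log2 difference, CORIN+ minus CORIN-, in ESC-derived cells (left) and in the fetal VM (right), for the 8 members (circles) and 10 neuronal markers (diamonds), 1 array per population. Dotted lines mark 2-fold; in the fetal VM all 8 members lie between -0.34 and -0.079.

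To find genes with a like pattern, the log2 signals of every gene were centred on their own mean over the 4 arrays and set against the mean centred profile of the 8 members. That profile was nearly flat, at -0.030 in cultured CORIN+ cells, -0.11 in cultured CORIN- cells, -0.020 in VM CORIN+ and 0.16 in VM CORIN- cells. The 5 nearest of 19930 other genes by Euclidean distance were Lsm11, Mboat4, Olfr411, Olfr1016 and Brdt, at 0.014 to 0.016 log2 units. Of the other genes, 1216 lay nearer to the profile than any member did. The members themselves lay at 0.11 (Hmgcs1) to 0.49 (Cyp51), and the median distance of all other genes was 0.30. The mean profile is therefore shared by many genes with little variation and does not set the 8 genes apart.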

How the data were processed

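Affymetrix mouse whole-transcript arrays were run on RNA of 4 sorted populations, 1 array each. The values deposited by the authors are log2 signals, 1 per array for each of 28856 transcript clusters. The methods name GeneSpring 13.0. How probes were summarized, how arrays were normalized and which build was used is not given in the sources used here. The platform annotation pairs 21789 clusters with 1 symbol, 1621 with several and 5446 with none, and symbols were updated by gene identifier for 21698. The brightest cluster over the 4 arrays represented a gene. Log2 differences were taken between populations as deposited, and clusters past 2-fold in either direction were counted without a filter. No difference between populations was tested, since each population has 1 array. The members and gene lists were chosen with earlier results of these data known. All members and the measured pathway genes are named, and of the 5 related lists (sterol sensing, efflux, isoprenoids, fatty acids, ketone isozymes) the genes at least 2-fold in the same direction in both fractions; the cell type and cell division lists are given by counts; Apoe and Abca1, and the genes of those lists given for comparison, were named after their values were seen. The alternatives were quantile normalization, centring, 32 added to the linear signal, the mean over clusters, a filter at the 50th percentile of signal, and thresholds of 1.5-fold and 3-fold. The calculation of counts and medians was checked on simulated data. Python 3.11.15, numpy 2.4.6, pandas 2.3.3 and matplotlib 3.10.9 were used.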

Additional observations from a re-analysis of the deposited data

Results flagged for a closer look

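With differences as deposited, Idi1 went opposite ways across the sort in the 2 sources, each time past the scaled median absolute deviation of all clusters. The log2 difference of Idi1, CORIN+ minus CORIN-, was 0.22 in the ESC-derived cells and -0.19 in the fetal VM. The other cluster of the gene, which is annotated with the same transcripts and is no independent measurement, gave 0.20 and -0.17. Centred on the median of all clusters, the fetal difference was -0.156, which is inside the deviation of 0.162 for that comparison. Nor was the change of sign particular to Idi1. Hmgcs1, Sqle, Fdft1, Cyp51 and Dhcr7 also lay above 0 in the culture sort and below 0 in the VM sort. The difference between the sources was not tested.

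Apoe, the apolipoprotein that carries cholesterol between cells of the brain, was at 10.34 on the log2 scale in cultured CORIN+ cells, against 12.38 in VM CORIN+ cells, a log2 difference of -2.04. In CORIN- cells it was 10.72 in culture, against 9.68 in the fetal VM, a log2 difference of 1.04. The difference between the fractions was not tested. The summed macrophage signal was 17449 in VM CORIN+ and 1111 in VM CORIN- cells, and its part in the Apoe values was not tested.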

How the results depend on the processing

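The counts past a fold threshold, the medians and the single differences of the 8 genes were recomputed in 236 combinations of result and setting. Counts past the scaled median absolute deviation were not among the recomputed results. Of these, 116 gave the value reported exactly, many by construction: every member passes the filter on dim clusters, the mean over clusters touches only Idi1 and Fdft1, and a 3-fold threshold cannot raise a count of 0. Of the other 120, all but 1 moved by less than the scaled median absolute deviation of all clusters. The exception was the count of genes lower in cultured than in fetal CORIN- cells, which was 1 (Cyp51) when 1.5-fold sufficed and 0 when 2-fold or 3-fold was asked for. No single difference of a member moved by more than 0.059 log2 units, and Lss in CORIN- cells was the 1 that changed sign. The medians ran from -0.020 to 0.0065 (culture minus fetal, CORIN+ cells), from -0.31 to -0.29 (CORIN- cells), from 0.076 to 0.088 (CORIN+ minus CORIN-, ESC-derived) and from -0.18 to -0.15 (fetal VM), so the first has no settled sign. Of the 18 pathway genes in culture minus fetal CORIN- cells, 9 were higher as deposited, 8 after quantile normalization and 10 after centring. Without replicates or background values, differences as small as these cannot be told apart from array noise. No paired analysis was possible because each population has 1 array.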

Other observations

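Of 11 measured genes of sterol efflux and oxysterol metabolism, 5 were past 2-fold above the fetal signal in cultured CORIN- cells and 0 below it, while in CORIN+ cells 0 were above and 1, Apoe, below. Over all clusters these shares were 3.94% and 3.53% in CORIN- cells, and 2.7% and 3.86% in CORIN+ cells. Of the 5, Apoe, Cyp27a1 and Cyp7b1 passed narrowly, at 2.06-fold, 2.05-fold and 2.03-fold. Abca1, the pump that passes cholesterol to apolipoproteins, was at 10.41 on the log2 scale in cultured CORIN+ and 10.10 in cultured CORIN- cells, against 9.98 in VM CORIN+ and 8.69 in VM CORIN- cells. Its fetal CORIN- signal stood apart from the other 3 as the lowest, whereas that array had the highest signal for 6 of the 8 cholesterol synthesis genes. The same array was lowest for Apoe, Cyp27a1, Cyp7b1, Scarb1 (2.22-fold) and Lcat, and another array was lowest for the rest of the list. For the 5 genes past 2-fold, a low signal on that array follows in part from how they were picked. Abcg1, of the same list, went the other way and was highest in VM CORIN- cells. It was at 9.86 in cultured CORIN+ and 9.81 in cultured CORIN- cells, against 9.36 in VM CORIN+ and 9.89 in VM CORIN- cells. Whether these patterns go together was not tested.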
